A study of Bos taurus with 8 samples.

Results

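Interferon-stimulated genes are the genes that cells switch on when they sense an interferon. Interferons bind receptors that signal through JAK kinases to transcription factors such as STAT2 and IRF9, which turn on antiviral effectors such as the MX proteins, the OAS enzymes, the ubiquitin-like protein ISG15 and the IFIT proteins. RNA sensors such as RIG-I and MDA5 start interferon production in infected cells, while USP18 and related genes damp the response. In cattle the conceptus secretes a type I interferon, interferon tau, that induces many of these genes in the endometrium around the recognition of pregnancy.

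The list held 45 genes, set with earlier results of these data known. Probes were matched to it by symbol in the annotation of the arrays, with the brightest probe taken for each gene. The files named probes for 39 of them, 76 probes in all, of the 43653 noncontrol probes on the array. Testing required a signal well above background on 4 or more of the 8 arrays, which left 63 probes and 36 measured genes of the 12805 tested genes with a symbol. The probes of IFIT1, OAS2 and OASL, 1 each, were well above background on 1, 0 and 0 arrays and were not tested. Matching accessions to RefSeq added OAS1X and OAS1Y, which the files call OAS1, and OAS1Z, whose 2 probes were each well above background on 1 array. GBP2, DDX60 and IFI44L had no probe by name or accession. Of the 36 measured genes, 33 were well above background on all 8 arrays, and the others were MX2, ISG20 and IFITM3.

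The samples were endometrial biopsies of 8 cows, 1 array each, taken on day 7 after standing estrus (day 0) from the horn that lay beside the corpus luteum. Each horn of 4 cows had received 25 mL of 5 mM methylglyoxal, a reactive by-product of glycolysis that glycates proteins, on day 1. The other 4 cows received 0 mM in the same volume on the same day, and all 8 were thus infused and sampled alike. The question put to the samples was how intrauterine methylglyoxal affects endometrial transcripts. The labels give no breed, age or genotype, and the biopsies are whole tissue, so fewer cells of a type and less RNA per cell cannot be told apart. Between 68.3% and 73.3% of probes were well above background on each array, and precision is limited by the number of arrays. Levels are log2 signals minus that array's 75th percentile, so that 1 unit is a 2-fold step and 0 lies at that percentile, and levels of different probes are not compared. A difference is the mean of the 5 mM cows minus that of the 0 mM cows, with the standard error of the limma fit over all tested probes.

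Each probe is a single strand of 60 bases, and the following sequences are shown because several results turn on whether separate probes of a gene followed each other. The probes are placed on the HGSC Btau_3.1 bovine build, per the files, and capitals mark the run that the probes of a pair share. ISG15 probe A_73_P122741 lies on the minus strand at chr16:48718914-48718973 and A_73_119493 at chr16:48718882-48718941, and they share 28 bases. HERC6 probe A_73_P087376 lies on the minus strand at chr6:37128613-37128672 and A_73_P148206 at chr6:37128644-37128703, and they share 29 bases. IFIH1 probe A_73_105902 spans chr2:35326383-35326998 and GBP4 probe A_73_P291911 spans chr3:57688174-57689784, both on the plus strand and both wider than 60 bases on the genome.
ISG15 A_73_P122741: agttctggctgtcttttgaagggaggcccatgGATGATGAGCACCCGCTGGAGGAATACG
ISG15 A_73_119493: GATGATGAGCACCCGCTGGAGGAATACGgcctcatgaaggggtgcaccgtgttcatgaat
HERC6 A_73_P087376: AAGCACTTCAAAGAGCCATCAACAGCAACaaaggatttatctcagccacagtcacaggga
HERC6 A_73_P148206: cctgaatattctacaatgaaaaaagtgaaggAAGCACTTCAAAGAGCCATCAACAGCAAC
IFIH1 A_73_105902: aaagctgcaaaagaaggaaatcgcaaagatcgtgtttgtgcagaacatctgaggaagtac
GBP4 A_73_P291911: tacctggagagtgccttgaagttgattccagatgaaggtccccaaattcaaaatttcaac

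Most measured interferon-stimulated genes had a lower mean in the 5 mM cows, but no gene's difference passed the test. Of the 36 genes, 31 had a lower mean and 5 a higher one (ZNFX1, IFIH1, IFITM3, IFIT5 and IFIT3), where 46.9% of all 31108 tested probes were lower. Many of the genes varied together across cows, as described below. This count and the counts by family that follow are thus not made of independent observations. The median difference of the 36 genes was -0.55, against 0.01 over all tested genes. With limma and Benjamini-Hochberg adjustment over all tested probes, 0 of the 36 genes had an adjusted p under 0.05, and their adjusted p lay between 0.913 and 0.977. Over all tested probes the count was likewise 0, or 0%. At an unadjusted p under 0.05 there were 2 genes, IFITM1 and IFI6, beside 1.91% of all tested probes. The stricter rule that also asks for a 2-fold difference took 0 of the 36, beside 0.534% of all tested probes. At least 2-fold lower means, without regard to a test, were found for GBP4, ISG20 and XAF1, 3 of 36 genes beside 3.96% of all tested probes. In each of them the 2-fold size, though not the lower mean, rested on a single cow. GBP4 was at -0.63 and XAF1 at -0.60 without 5 mM replicate 1, and ISG20 was at -0.60 without 0 mM replicate 2. ISG20 and MX2 met the signal requirement through the 0 mM cows, where they are higher, so their lower means are no support for a direction. With the requirement set on all 8 arrays, which leaves both out, 30 of 34 genes were lower. That count includes IFITM3, which was then read from another probe, at -0.24 in place of 0.19. In 0 of the 36 genes did all 5 mM cows lie below all 0 mM cows, beside 0.524% of all tested probes.

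**Figure D1:**
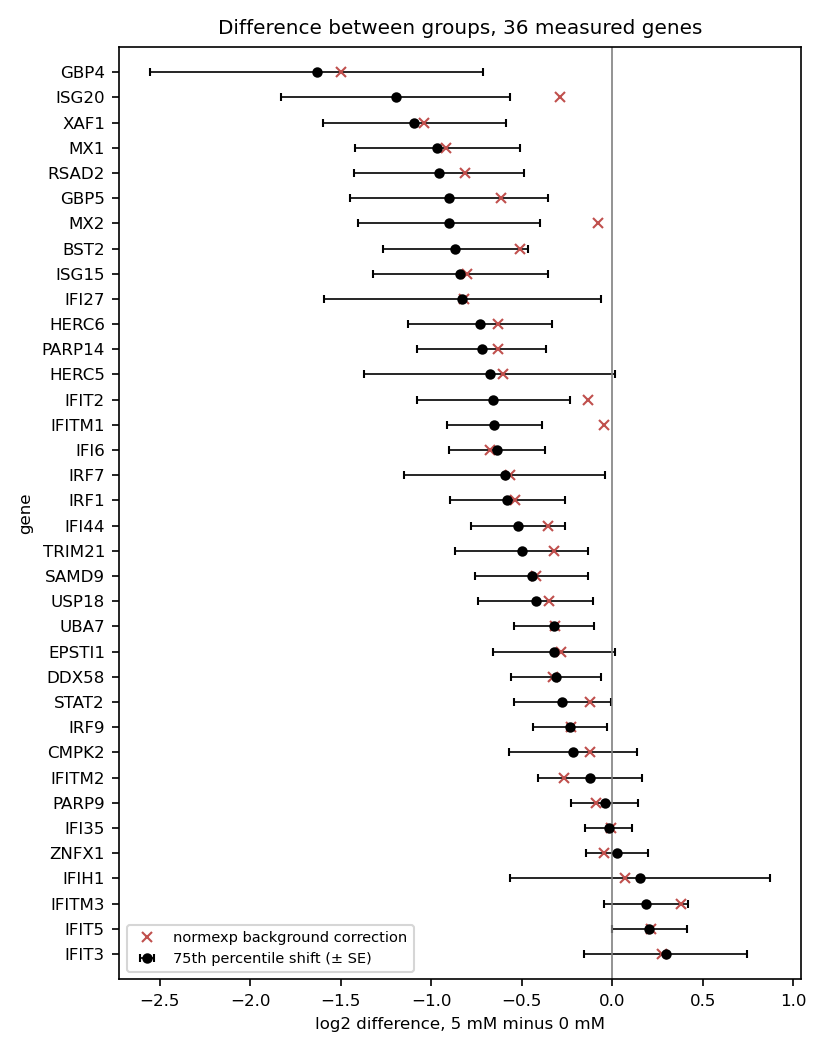
Difference of each of the 36 measured genes (x axis, log2 signal, 5 mM minus 0 mM; circles with standard errors) with the normexp background correction as crosses. The points run from -1.63 for GBP4 to 0.29 for IFIT3, 31 of them left of 0, and the crosses of ISG20, MX2, IFIT2 and IFITM1 lie nearer 0 than their circles.

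The median difference depended on single cows and on the background correction, while its sign did not change under any setting tried. Leaving out 5 mM replicate 1 gave -0.35, and leaving out 0 mM replicate 2 gave -0.34. Within slides 1, 2 and 3 it was -0.32, -0.46 and -0.33, with 27, 32 and 32 of the genes lower. Each of these rests on a single cow in at least 1 group. Slide 1 holds 1 cow of each group. Slide 2 holds 5 mM replicate 2 beside 0 mM replicates 2 and 3, and slide 3 holds 5 mM replicates 3 and 4 beside 0 mM replicate 4. The normexp correction gave -0.32, with 32 genes lower.

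Of the large antiviral GTPases of the MX and GBP families, MX1, GBP4 and GBP5 were lower in the mean, and MX2 was near background in most 5 mM cows. MX1, which blocks the nucleocapsids of many RNA viruses, had levels of -0.23, 1.12, 0.78 and 1.57 in the 5 mM cows, against 0.90, 2.52, 1.98 and 1.72 in the 0 mM cows. Of the 5 mM cows 2 lay below every 0 mM cow and 3 of the 0 mM cows lay above every 5 mM cow, with overlap between replicate 1 of the 0 mM group and the 5 mM cows. The difference of MX1 was -0.97 ± 0.46 (SE), with an unadjusted limma p of 0.0666. Its second probe differed by -1.06 and followed the first across cows with r = 1.00, and the third differed by -0.94 with r = 0.89.

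GBP4, a guanylate-binding protein induced by interferons, gave -2.61, 1.84, 1.08 and 1.31 in the 5 mM cows, against 2.12, 2.52, 1.27 and 2.24 in the 0 mM cows. Replicate 1 of the 5 mM group stood far below the other 7 cows, whose values overlapped, and the range over cows of 5.13 was the widest among the measured genes. The difference was -1.63 ± 0.92. Its probe A_73_P291911, printed above, had -4.95, -1.44, -2.80 and -2.14 in the 5 mM cows, against -1.56, -0.77, -1.89 and -1.09 in the 0 mM cows, and the same cow was lowest. It differed by -1.50 and correlated with the brightest GBP4 probe at r = 0.97.
GBP5, another guanylate-binding protein, had -3.53, -3.47, -4.06 and -2.19 in the 5 mM cows, against -3.28, -2.69, -1.06 and -2.61 in the 0 mM cows. Here 3 of the 5 mM cows were below every 0 mM cow, while 5 mM replicate 4 was above all 0 mM cows but replicate 3. The difference was -0.90 ± 0.55, or -0.45 without 0 mM replicate 3. MX2, a second MX protein, gave -6.49, -5.85, -7.29 and -6.39 in the 5 mM cows, against -6.13, -4.16, -6.10 and -6.04 in the 0 mM cows. Its signal was well above background in 1 of the 5 mM cows and in 4 of the 0 mM cows. The MX2 difference was -0.90 ± 0.50 as processed, -0.42 without 0 mM replicate 2 and -0.08 with normexp, so its size depends on how the background is treated.

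The OAS enzymes sense double-stranded RNA and make a nucleotide second messenger, and 2 of the bovine OAS1 genes were measurable. OAS1Y had 2.29, 2.61, 2.24 and 2.58 in the 5 mM cows, against 2.48, 4.08, 3.03 and 3.09 in the 0 mM cows. Of the 0 mM cows, 3 lay above every 5 mM cow and replicate 1 fell among them. The difference was -0.74 ± 0.32, with an unadjusted limma p of 0.0501 and an adjusted p of 0.913. OAS1X had -4.28, -2.95, -4.21 and -2.93 in the 5 mM cows, against -3.81, -2.66, -2.40 and -2.01 in the 0 mM cows. Again 3 of the 0 mM cows exceeded every 5 mM cow, and the difference was -0.87 ± 0.48. Counting OAS1X and OAS1Y through RefSeq names, 34 of 38 genes were lower and the median difference was -0.59. The OAS1 genes resemble each other in sequence, and binding of one transcript to the probe of another was not tested.

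ISG15 and the enzymes that attach it to proteins or remove it were lower in the mean in 5 of 5 cases. ISG15, the ubiquitin-like modifier itself, had -0.69, 0.61, 0.09 and 1.08 in the 5 mM cows, against 0.18, 2.07, 1.13 and 1.09 in the 0 mM cows. The 0 mM replicates 2 to 4 lay just above or well above the highest 5 mM cow, and 0 mM replicate 1 lay among the 5 mM cows. The difference was -0.84 ± 0.48. The overlapping ISG15 probe A_73_119493, which shares the capital letters printed above, differed by -0.93 ± 0.51 and followed the first at r = 0.99.
HERC6, which attaches ISG15 to proteins in the mouse, had -2.37, -0.95, -2.00 and -1.26 in the 5 mM cows, against -1.45, -0.07, -1.02 and -1.12 in the 0 mM cows. Only 0 mM replicate 2 exceeded every 5 mM cow, and the difference was -0.73 ± 0.40. The second HERC6 probe differed by -0.85 ± 0.35 with an unadjusted limma p of 0.0425, and it followed the first at r = 0.98. HERC5, the ligase with that role in humans, gave -2.02, 1.12, -1.12 and 0.69 in the 5 mM cows, against 0.20, 1.15, -0.10 and 0.11 in the 0 mM cows. The 5 mM cows were split, with replicates 2 and 4 above 3 of the 0 mM cows, and the difference of -0.68 ± 0.70 was smaller than its error and was -0.12 without 5 mM replicate 1. HERC5 was 0.59 higher in the 5 mM cow of slide 2 than in the 0 mM cows of that slide. The activating enzyme UBA7 differed by -0.32 ± 0.22 and the ISG15 protease USP18 by -0.42 ± 0.32.

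The IFIT proteins, which bind foreign RNA, did not share a direction, with 1 of 3 lower. IFIT3 had -2.03, -3.53, -3.69 and -3.81 in the 5 mM cows, against -3.87, -2.77, -4.08 and -3.51 in the 0 mM cows. Replicate 1 of the 5 mM group was the highest of all 8 cows, although it was the lowest for 22 of the 36 genes. The difference was 0.29 ± 0.45, and it was -0.12 without that cow. The second IFIT3 probe differed by 0.24 and followed the first at r = 0.96, so that both probes showed the high value.
IFIT5 had 1.72, 1.30, 1.60 and 1.17 in the 5 mM cows, against 0.94, 1.62, 1.35 and 1.06 in the 0 mM cows, a difference of 0.21 ± 0.21 between overlapping groups. IFIT2 gave -6.16, -5.01, -5.76 and -5.81 in the 5 mM cows, against -5.75, -3.88, -5.21 and -5.27 in the 0 mM cows. Its difference of -0.66 ± 0.42 was -0.13 with normexp, and 0 mM replicate 2 alone stood apart. IFIT1 was well above background in 0 of the 5 mM cows and in 1 of the 0 mM cows, so no difference is given for it.

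Of the RNA sensors and helicases, 1 of 3 was lower. DDX58, the RIG-I sensor (RIGI in RefSeq), gave -0.04, 0.58, 0.49 and 0.79 in the 5 mM cows, against 0.22, 1.01, 0.96 and 0.88 in the 0 mM cows. The 0 mM replicates 2 to 4 were above every 5 mM cow, and the difference was -0.31 ± 0.25. ZNFX1, a helicase-like sensor, had 2.10, 1.77, 2.20 and 2.41 in the 5 mM cows, against 1.93, 2.23, 2.03 and 2.18 in the 0 mM cows. Its groups overlapped throughout, with a difference of 0.03 ± 0.17, and its other tested probes followed the brightest only at r = 0.28 and 0.14.
IFIH1 encodes MDA5, a sensor of long double-stranded RNA, and its probes disagreed. The brightest probe, at chr2:35337628-35337687, had -2.87, -1.91, -2.22 and -3.67 in the 5 mM cows, against -1.98, -1.23, -4.03 and -4.04 in the 0 mM cows. The second probe, A_73_105902 printed above, had -5.10, -3.89, -4.55 and -3.74 in the 5 mM cows, against -4.01, -3.31, -3.65 and -3.96 in the 0 mM cows. With the brightest probe 0 mM replicates 3 and 4 were lowest of all 8 cows, and with the second probe 5 mM replicates 1 and 3 were lowest. The probes differed by 0.15 ± 0.72 and by -0.58 ± 0.33, and they correlated at r = 0.06 over the 8 cows. IFIH1 counts among the higher genes by its brightest probe only.

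The transcription factors that read out interferon signalling were lower in the mean in 4 of 4 cases, by 1 to 2 standard errors. IRF7, which amplifies type I interferon production, had -1.79, 0.45, -0.33 and 0.65 in the 5 mM cows, against -0.30, 1.08, 0.09 and 0.49 in the 0 mM cows. Replicates 1 and 3 of the 5 mM group were lowest and the rest overlapped, for a difference of -0.59 ± 0.56 that was -0.083 without 5 mM replicate 1. A second IRF7 probe that shares 54 bases with the first differed by -0.68 and correlated with it at r = 0.99. IRF1, a factor of both interferon types, differed by -0.58 ± 0.32, STAT2 by -0.28 ± 0.27 and IRF9, a DNA-binding partner of STAT2, by -0.23 ± 0.20.

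Among the membrane restriction factors, which hinder virus entry or release, 3 of 4 were lower. IFITM1 had the lowest unadjusted p of the measured genes. Its levels were -4.97, -5.80, -5.85 and -5.84 in the 5 mM cows, against -4.69, -4.69, -5.13 and -5.36 in the 0 mM cows. The 5 mM replicates 2 to 4 lay below every 0 mM cow and replicate 1 lay among them. The difference was -0.65 ± 0.26, with an unadjusted limma p of 0.0379 and an adjusted p of 0.913, and with normexp it was -0.04. IFITM2 had 3.72, 3.76, 4.08 and 4.42 in the 5 mM cows, against 3.37, 4.43, 4.20 and 4.47 in the 0 mM cows, and these overlapped with a difference of -0.12 ± 0.29. A second IFITM2 probe shares 54 bases with the first but followed it only at r = 0.24, where the equally overlapping pair of IRF7 probes reached 0.99.
IFITM3 had 4.41, 4.01 and 4.56 in 5 mM replicates 1, 3 and 4, against 3.90, 4.12 and 4.40 in 0 mM replicates 1, 3 and 4. The scanner software marked the spot as an outlier in replicate 2 of both groups, so each group has 3 values and the fit ran without them. The difference of 0.19 ± 0.23 lay between overlapping groups, and the other tested IFITM3 probes differed by -0.24 and -0.13. By accession, RefSeq gives the brightest probe and the first of these another locus name, and the IFITM genes are close copies of each other, so values for single IFITM genes are uncertain. BST2, or tetherin, which holds budding virus at the cell surface, had -4.43, -3.96, -3.22 and -2.50 in the 5 mM cows, against -2.52, -3.03, -2.43 and -2.67 in the 0 mM cows. Of the 5 mM cows, 3 lay below every 0 mM cow while replicate 4 lay among them, and the difference was -0.87 ± 0.40 (unadjusted limma p of 0.0617), or -0.57 without 5 mM replicate 1.

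**Figure D2:**
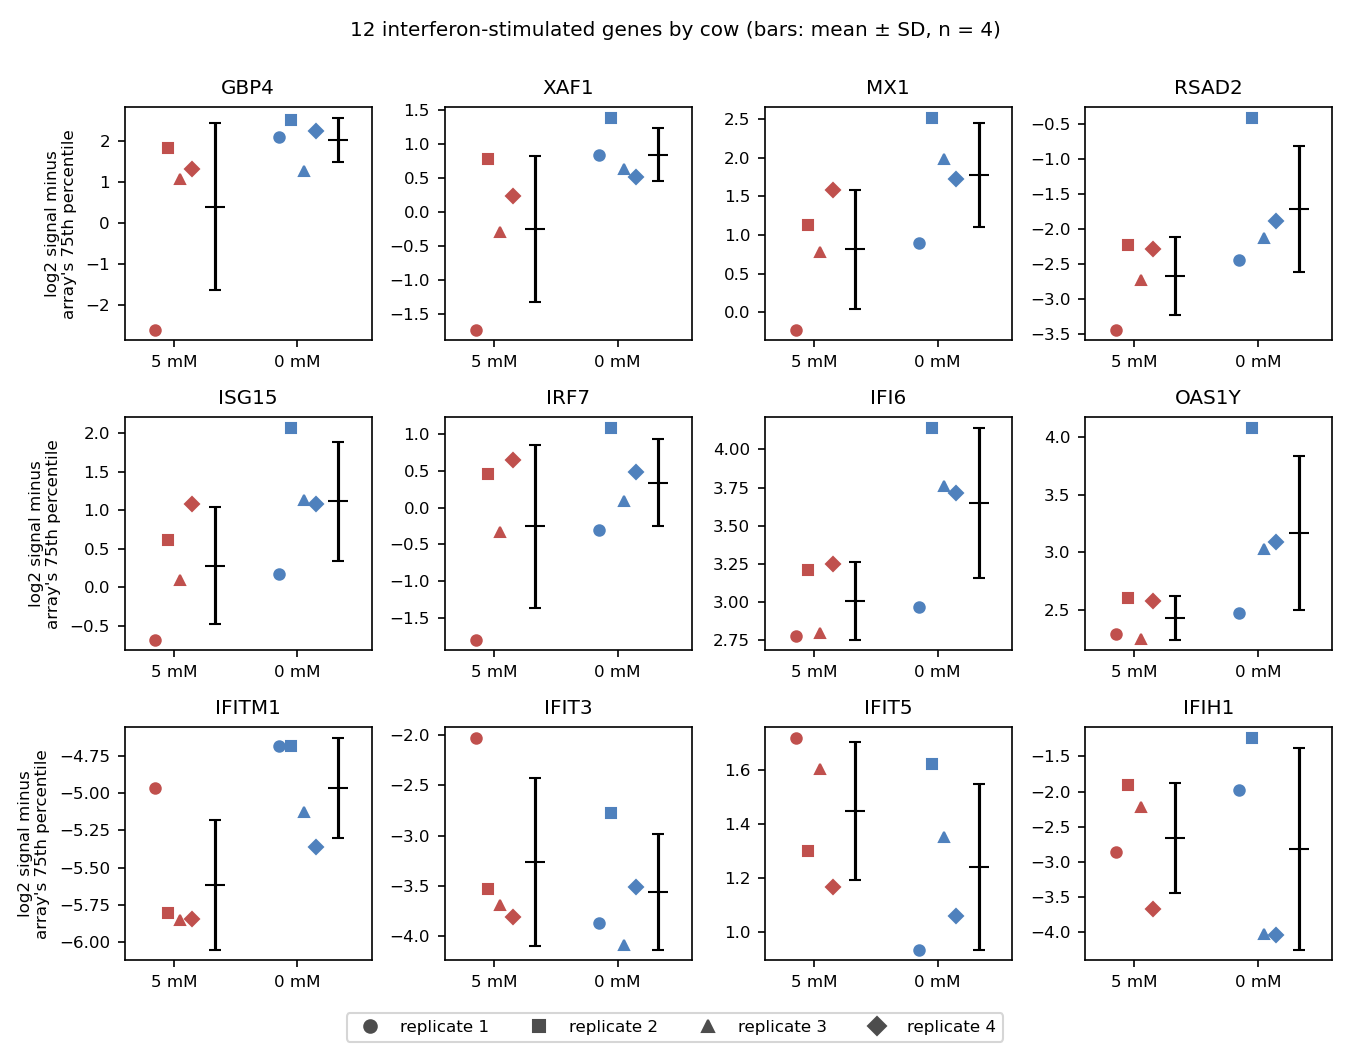
Levels of 12 genes by cow (y axis, log2 signal minus the 75th percentile of the array; 5 mM cows left in red, 0 mM cows right in blue; marker shapes give the replicate number; bars are mean ± SD, n = 4). In GBP4 and XAF1 replicate 1 of the 5 mM group stands below the other cows, in OAS1Y and IFI6 replicates 2 to 4 of the 0 mM group stand above every 5 mM cow, and in IFIT3 replicate 1 of the 5 mM group is the highest cow.

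The IFI genes, a group named only for their induction by interferon, were lower in the mean in 4 of 4 cases. IFI6, a small mitochondrial protein, had 2.78, 3.21, 2.79 and 3.25 in the 5 mM cows, against 2.97, 4.14, 3.76 and 3.71 in the 0 mM cows. The 0 mM replicates 2 to 4 were above every 5 mM cow and replicate 1 fell among them. The difference was -0.64 ± 0.26, with an unadjusted limma p of 0.0421 and an adjusted p of 0.913. IFI27, a related small protein, had -0.91, 2.12, 1.47 and 2.82 in the 5 mM cows, against 1.23, 2.45, 2.70 and 2.43 in the 0 mM cows. Replicate 4 of the 5 mM group was highest and replicate 1 lowest of all cows, and the difference of -0.83 ± 0.77 was close to its error and was -0.066 without 5 mM replicate 1. IFI35 had 1.73, 1.68, 1.57 and 1.58 in the 5 mM cows, against 1.50, 1.84, 1.65 and 1.65 in the 0 mM cows. Its range over cows, 0.335, was the narrowest of the measured genes, and its difference was -0.02 ± 0.13. IFI44 differed by -0.52 ± 0.26, with 3 of the 0 mM cows above every 5 mM cow.

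The remaining effectors were lower in the mean in 7 of 7 cases, among them ISG20, which is near background. RSAD2, or viperin, which makes a chain-terminating nucleotide, had -3.43, -2.23, -2.73 and -2.29 in the 5 mM cows, against -2.43, -0.41, -2.12 and -1.88 in the 0 mM cows. Replicates 2 to 4 of the 0 mM group exceeded every 5 mM cow, and the difference was -0.96 ± 0.47 (unadjusted limma p of 0.0755). Its genomic neighbour CMPK2, a nucleotide kinase, had -5.76, -4.46, -4.90 and -4.44 in the 5 mM cows, against -5.00, -4.08, -5.09 and -4.51 in the 0 mM cows. These values overlapped, with a difference of -0.22 ± 0.35. XAF1, a pro-apoptotic factor, had -1.73, 0.77, -0.30 and 0.24 in the 5 mM cows, against 0.83, 1.38, 0.62 and 0.51 in the 0 mM cows. Replicates 1, 3 and 4 of the 5 mM group lay below every 0 mM cow, the difference was -1.09 ± 0.51 (unadjusted limma p of 0.0636), and the second XAF1 probe differed by -1.17.
ISG20, an RNA exonuclease, had -7.28, -5.63, -5.66 and -6.38 in the 5 mM cows, against -5.50, -3.25, -5.84 and -5.58 in the 0 mM cows. Its signal was well above background in 2 of the 5 mM cows and in 4 of the 0 mM cows, and 0 mM replicate 2 stood apart. Its difference was -1.20 ± 0.63 as processed and -0.29 with normexp. SAMD9 differed by -0.45 ± 0.31, TRIM21, an intracellular antibody receptor, by -0.50 ± 0.37 and EPSTI1 by -0.32 ± 0.34. The ADP-ribosyltransferase PARP14 differed by -0.72 ± 0.36. Its partner gene PARP9 had 0.10, 0.16, 0.52 and 0.60 in the 5 mM cows, against 0.24, 0.73, 0.21 and 0.37 in the 0 mM cows, a difference of -0.04 ± 0.19 between overlapping groups.

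Set cow by cow, many of the measured genes varied together. Averaged over the genes relative to each gene's mean over cows, the 5 mM replicates 1 to 4 were at -0.77, 0.01, -0.37 and 0.11, against -0.13, 0.84, 0.17 and 0.17 in 0 mM replicates 1 to 4. Replicate 2 of the 0 mM group was the highest cow for 26 of the 36 genes and lay above the gene's mean in all 35 genes with a value there. Replicate 1 of the 5 mM group was the lowest cow for 22 genes and lay below the gene's mean in 29. The 2 groups overlapped in this average, since 5 mM replicates 2 and 4 lay above 0 mM replicate 1. The range over cows had a median of 1.71 among the measured genes and of 1.04 among all tested genes, 26.9% of which exceeded 1.71.

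**Figure D3:**
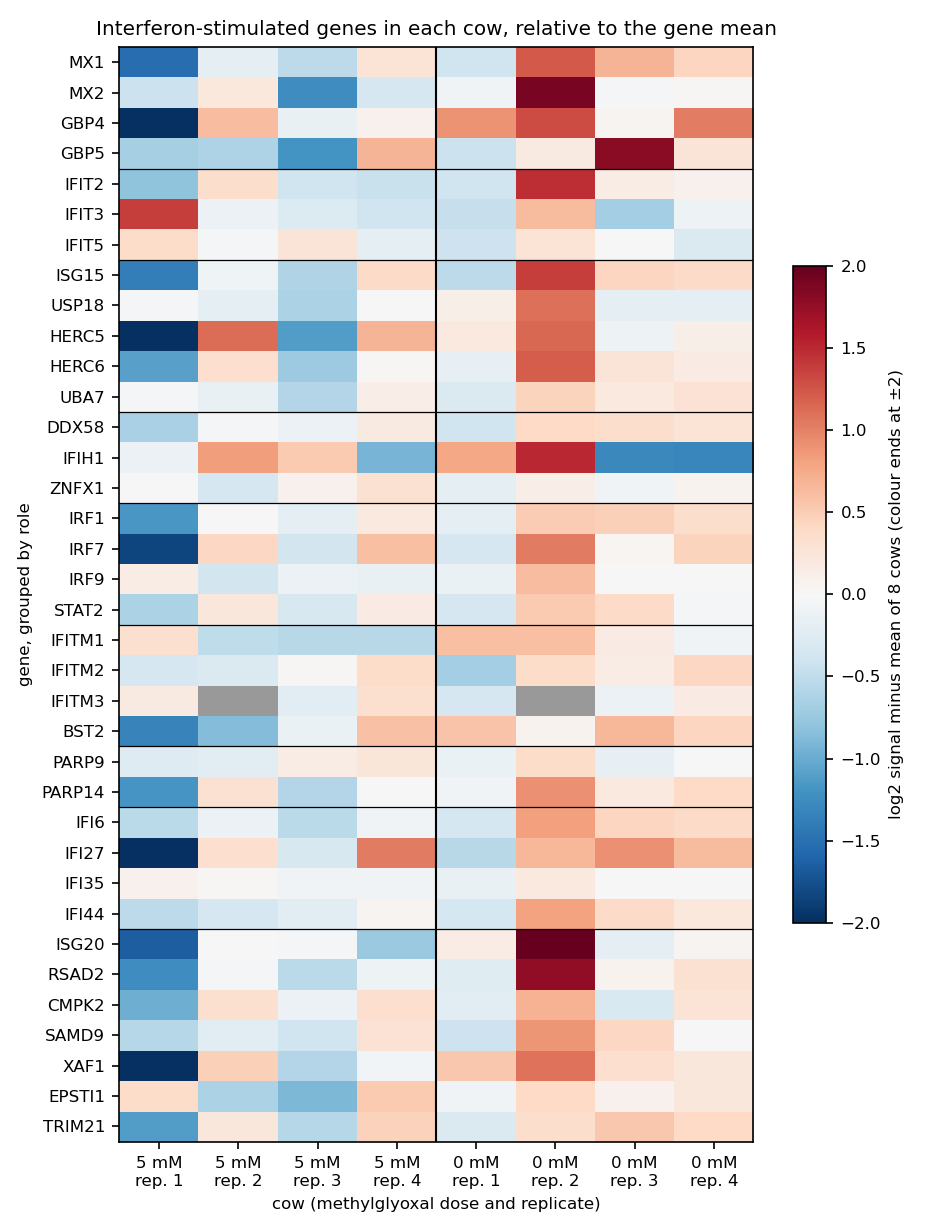
Each measured gene (rows, grouped by role) in each cow (columns, 5 mM left, 0 mM right), coloured by its log2 signal minus the gene's mean over the 8 cows, with missing values in grey. Replicate 1 of the 5 mM group is mostly blue, lowest for 22 genes, and replicate 2 of the 0 mM group is red, highest for 26 genes, with IFIT3 red in the first of these.

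Each gene was next compared with the mean of the other measured genes over the 8 cows, as a description only, since all points share the same arrays and scaling. The median Pearson r was 0.81, and 21 of 36 genes were above 0.7. Over the 12626 other tested genes the median r with the mean of the measured genes was 0.01 and 15.3% were above 0.7. The pattern was not particular to the list, since the means of other lists described below followed it too. Their r was 0.96 for interferon gamma targets, 0.90 for T and natural killer cell markers and 0.82 for ciliated cell markers. It was -0.87 for smooth muscle markers and -0.84 for fibroblast markers. With each group's mean subtracted the median for the measured genes was 0.75, and without the 2 cows farthest from the median, 5 mM replicate 1 and 0 mM replicate 2, it was 0.66. The rank correlation had a median of 0.73.
ISG15 followed the others most closely, with r = 0.98 and rho = 0.98, ahead of HERC6 at r = 0.97, RSAD2 at 0.97, MX1 at 0.96 and PARP14 at 0.96. MX1 and ISG15 followed each other at r = 0.985. At the other end were IFIT3 with r = -0.28, IFIT5 with -0.19, IFITM3 with 0.05, IFIH1 with 0.09 and IFITM1 with 0.18. These low values shifted with the cows included. IFIT3 was at 0.71 without 5 mM replicate 1 and at -0.14 without both that cow and 0 mM replicate 2, and IFIH1 was at 0.08 and -0.81 in the same settings. Among all 630 pairs of measured genes the median r was 0.51, with 30.6% above 0.7 and 15.1% below 0.

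**Figure D4:**
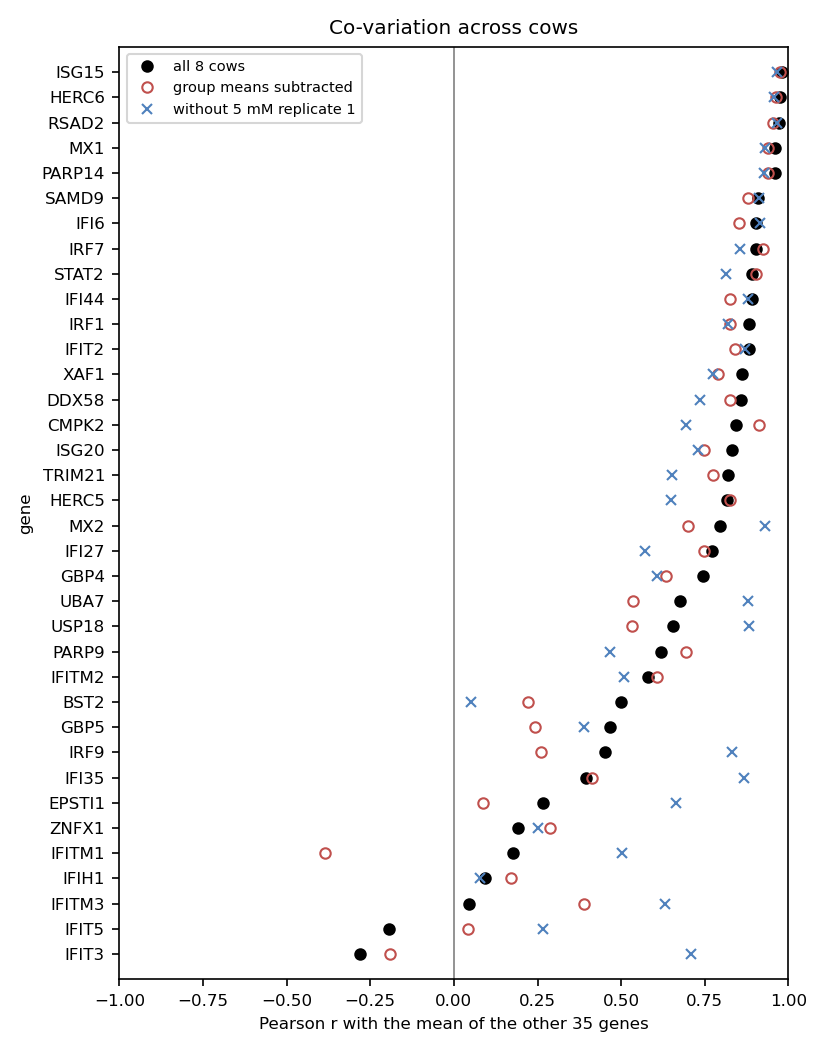
Pearson r of each measured gene with the mean of the other measured genes over cows (x axis), for all 8 cows (filled), with group means subtracted (open) and without 5 mM replicate 1 (crosses). ISG15, HERC6, RSAD2, MX1 and PARP14 lie above 0.95 with all cows, and IFIT3 moves to 0.71 without that cow.

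The tested genes outside the list whose pattern over the 8 cows was most like the mean of the measured genes, by Pearson's r, were CLEC2D at 0.98, LPAR6 at 0.98, P2RY10 at 0.97, H2B at 0.97 and TERC at 0.97. CLEC2D, which encodes a ligand of a natural killer cell receptor, had -2.22, -0.69, -1.36 and -0.59 in the 5 mM cows, against -1.17, 0.38, -0.33 and -0.51 in the 0 mM cows. Its cow order was close to that of the list, with 5 mM replicate 1 lowest and 0 mM replicate 2 highest.

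The rest of the interferon pathway was described from lists chosen like the members. Of 20 interferon genes 12 had no probe, and the probes of 7 others, IFNG among them, were well above background on at most 1 array. Only 1 was tested, IFNT3, an interferon tau gene, at -0.15 ± 0.33. It was near background, with mean levels of -6.59 in the 5 mM cows and -6.44 in the 0 mM cows. Its signal was well above background in 2 of the 5 mM cows and in 3 of the 0 mM cows. Of 13 tested receptor and signalling genes, 5 were lower and 8 higher with a median of 0.04, and 0 had an unadjusted p under 0.05. The lowest p values there belonged to JAK1, a receptor kinase (0.14 ± 0.12), IRF8, a factor of myeloid cells (-0.41 ± 0.37), and IFNGR1, a receptor chain for interferon gamma (0.15 ± 0.16).
Of 9 nucleic acid sensing genes 5 were lower with a median of -0.0018, and DHX58, the RNA helicase LGP2, differed by -0.75 ± 0.22 with an unadjusted limma p of 0.0100. The kinases IKBKE and TBK1 differed by -0.26 ± 0.26 and 0.22 ± 0.23. Of 10 genes that restrain the pathway 6 were lower with a median of -0.04, and those with the lowest p were the phosphatases PTPN6 (-0.37 ± 0.26), PTPN2 (-0.33 ± 0.25) and PTPN1 (-0.42 ± 0.32).
Of 28 further interferon-stimulated genes 23 were lower with a median of -0.25, and 4 had an unadjusted p under 0.05, beside 1.91% of all tested probes. Of those 4, the ones with the lowest p were higher in the mean: PNPT1, a mitochondrial RNA exonuclease (0.76 ± 0.30), N4BP1, an RNA-cutting restriction factor (0.61 ± 0.24), and SAMHD1, which breaks down nucleotides (0.46 ± 0.19). Of 14 targets of interferon gamma all 14 were lower with a median of -0.92, and 4 had an unadjusted limma p under 0.05, beside 1.91% of all tested probes. Those with the lowest p were the chemokines CXCL11 (-1.33 ± 0.26), CXCL10 (-1.43 ± 0.37) and CXCL9 (-2.21 ± 0.67). CXCL11 was well above background in 2 of the 5 mM cows and in 4 of the 0 mM cows. Its lower mean is therefore no support for a direction. No gene of these lists passed the adjusted limma test, the adjusted p of those named being 0.913 or higher.

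Marker RNA of other cell types differed between cows, and its part in these values was not tested. The 14 smooth muscle markers summed to 65.8 to 674 in the 5 mM cows, against 45.2 to 315 in the 0 mM cows, in multiples of the 75th percentile, with 5 mM replicates 1 and 3 and 0 mM replicate 1 highest, and 13 of 14 were higher with 5 mM (median difference 1.098). These 3 cows were also the 3 lowest in the mean of the interferon-stimulated genes. Leaving them out, 32 of 36 genes were lower and the median was -0.34. That setting compares only 5 mM replicates 2 and 4 with 0 mM replicates 2 to 4. It keeps 0 mM replicate 2, the highest cow for 26 of the 36 genes. The 11 epithelial markers summed to 4.38 to 67.3 in the 5 mM cows, against 54.9 to 77.9 in the 0 mM cows. The lowest sum was that of 5 mM replicate 1, and the other 7 cows were at 54.9 or more. All 11 epithelial markers were lower with 5 mM, with a median difference of -1.16.
The 14 tested markers of T and natural killer cells averaged -1.26, -0.12, -0.02 and -0.03 in the 5 mM cows relative to their mean over cows, against -0.14, 0.83, 0.17 and 0.58 in the 0 mM cows, and 13 of 14 were lower with 5 mM. They summed to 8.57 to 10.4 in the 5 mM cows, against 10.2 to 13.0 in the 0 mM cows, and NCR1 was not well above background on any array. A sum weighs the brightest markers most, here CD3D, the 1 marker higher with 5 mM (0.06 ± 0.24). CD3D was at 2.89 in 5 mM replicate 1, so the sum of that cow, 8.98, does not show its low mean over the markers. The 11 tested macrophage and dendritic cell markers were all lower, with sums of 8.51 to 18.6 in the 5 mM cows, against 10.03 to 33.0 in the 0 mM cows, and ITGAM was not well above background on any array. The 7 tested B and plasma cell markers were all lower too, with sums of 1.34 to 8.86 in the 5 mM cows, against 1.21 to 20.5 in the 0 mM cows. Among the B and plasma cell markers, MS4A1 was well above background in 0 of the 5 mM cows and in 4 of the 0 mM cows, and PAX5 in 1 and 3. Both met the signal requirement mainly through the 0 mM cows, so their lower means are no support for a direction. The same holds for the T cell marker CD5, in 2 and 4 cows, and the muscle marker CASQ2, in 1 and 3. The 8 ciliated cell markers were all lower, with sums of 4.83 to 26.3 in the 5 mM cows, against 17.0 to 28.5 in the 0 mM cows. Sums of the 7 endothelial markers were 19.8 to 25.3 in the 5 mM cows, against 15.9 to 24.9 in the 0 mM cows, with 3 of 7 lower. Sums of the 8 fibroblast markers were 133 to 245 in the 5 mM cows, against 125 to 182 in the 0 mM cows, with 3 of 8 lower.

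**Figure D5:**
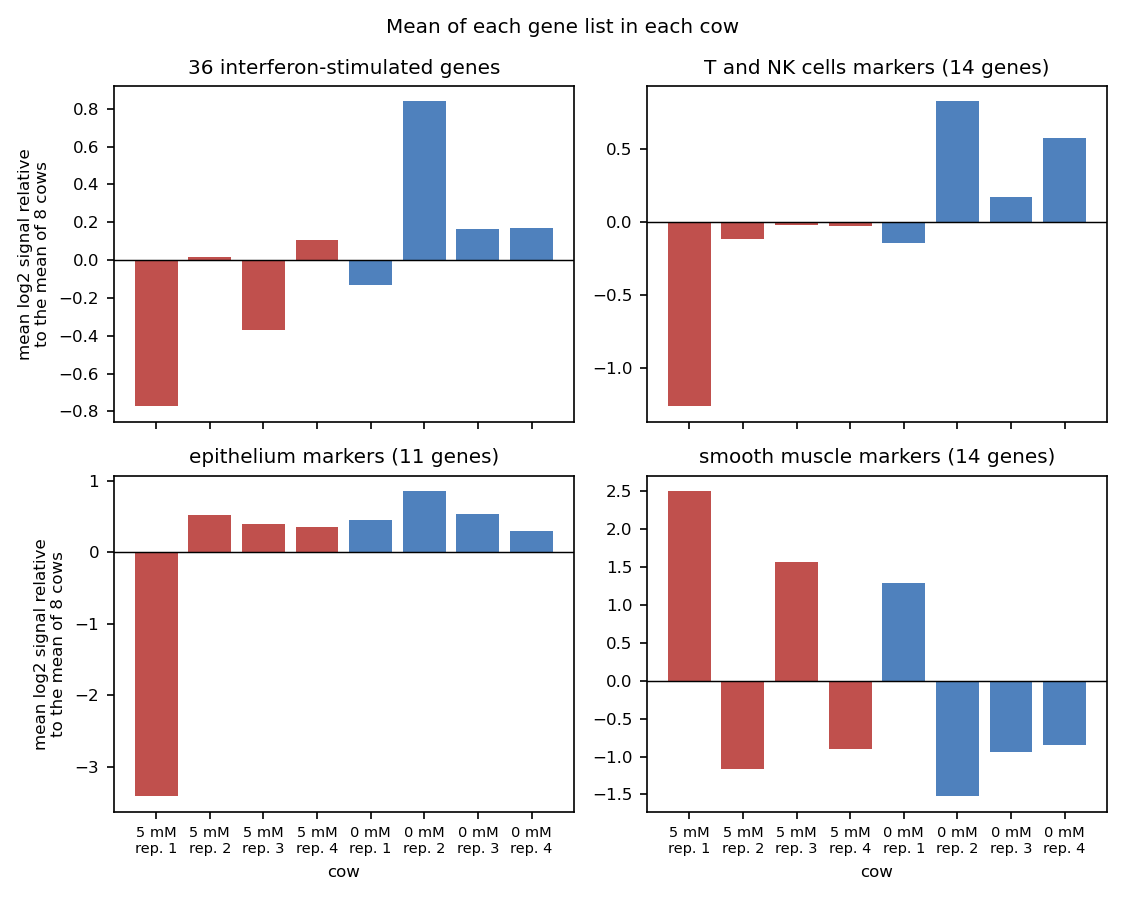
Mean log2 signal in each cow relative to the mean over 8 cows (y axis) of the 36 interferon-stimulated genes and of markers of T and natural killer cells, epithelium and smooth muscle (5 mM cows left in red, 0 mM cows right in blue). The interferon-stimulated genes and the lymphocyte markers are lowest in 5 mM replicate 1 and highest in 0 mM replicate 2, the epithelial markers are low in 5 mM replicate 1 alone, and the muscle markers are high in the 3 cows where the interferon-stimulated genes are lowest.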

How the data were processed

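The deposited scanner files hold spot intensities on a linear scale, from which Agilent Feature Extraction had subtracted background, per the file headers (version 11.5.1.1, whereas the submitters' processing notes name 10.5.1.1). The deposited value table holds log2 values shifted to the 75th percentile with the median over arrays taken off each probe, as found by comparison with the scanner values (Pearson's r of 0.9995 or more across probes), and served as an alternative. The medians of its columns, replicates 1 to 4 in order, were 0.13, -0.0049, -0.011 and 0.013 in the 5 mM group, against -0.016, -0.023, 0.00088 and -0.0062 in the 0 mM group. Control and outlier-marked spots were left out, log2 intensities were averaged per probe, and the 75th percentile of the array was subtracted. Tests used limma 3.58.1 in R 4.3.3 on 31108 probes, with Benjamini-Hochberg adjustment, and were tested on simulated data. Symbols of genes outside the list and of pathway genes came from the files and a RefSeq table of assembly ARS-UCD2.0, and no genome of the array's build was used here.

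The members, lists, tests and alternatives were chosen with earlier results of these data known. Given by cow were the members with the 8 largest and 8 smallest differences, the 5 highest and 5 lowest levels and the 5 widest ranges, with IFIH1, IFIT3, ISG15, IRF7, HERC6, DDX58, OAS1X and OAS1Y added after their values were seen. Pathway genes named were the 3 with the lowest unadjusted p per list. Leaving out other single cows from the co-variation was added after seeing the data. The results of some genes of the pathway lists are not reported here.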

Additional observations from a re-analysis of the deposited data

Results flagged for a closer look

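A cow far from the other 3 of its group, by Dixon's test at the 95% level, was found in 5 of the 72 groups examined. That is near the rate of about 1 in 20 that chance gives for independent values. The genes varied together, and the share over all tested probes was not computed, so the cases are listed as a description only. For 2 genes it was 5 mM replicate 1, which was high: IFIT3 at -2.03, with the other 5 mM cows between -3.81 and -3.53, and IFITM1 at -4.97, with the others between -5.85 and -5.80. For 2 others it was 0 mM replicate 2, again high: MX2 at -4.16, with the other 0 mM cows between -6.13 and -6.04, and ISG20 at -3.25, with the others between -5.84 and -5.50. DDX58 in 0 mM replicate 1 was low at 0.22, with the other 0 mM cows between 0.88 and 1.01.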

How the results depend on the processing

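Over 25 alternatives, 0 probes and 0 of the measured genes had an adjusted limma p under the threshold of 0.05, or 0.1, in every setting that gave one, and the lowest adjusted p of a measured gene was 0.667. Of the genes measured in each setting (36 as processed), 27 to 34 were lower, with a median difference between -0.70 and -0.32 (30 lower and -0.36 with array weights), and 23 genes kept their sign throughout. The median r of a gene with the mean of the others stayed between 0.75 and 0.83 with group means subtracted or 1 cow left out. The count of probes past both an unadjusted p of 0.05 and a 2-fold difference, 166 as processed, was 84 with normexp, 361 without a filter, 110 with the filter on all 8 arrays, 263 with slide as a block, and 130 to 557 leaving out 1 cow. Among the interferon-stimulated genes this count was 0 as processed, 1 with slide as a block and 0 to 3 leaving out 1 cow. With the replicate block these counts were 352 and 2, the pairing having no basis in the labels and same-numbered cows correlating at 0.40, 0.36, -0.30 and 0.31. The causes were not tested. Signs turned for 13 genes, most with small differences. ZNFX1 became -0.0060 with quantile normalization, -0.045 with normexp, -0.20 as a mean over probes, -0.038 with slide as a block, -0.36 within slide 2, -0.055 without the 3 muscle-rich arrays and -0.069 to 0.14 leaving out 1 cow. IFI35 became 0.036 with a median shift, 0.012 with slide as a block, 0.23 within slide 1 and -0.072 to 0.040 leaving out 1 cow. PARP9 became 0.014 with a median shift, 0.024 with array weights, 0.19 within slide 3 and -0.13 to 0.073 leaving out 1 cow. IFITM3 became -0.24 with the filter on all 8 arrays, -0.12 as a mean over probes, -0.12 within slide 3 and -0.13 with RefSeq symbols. CMPK2 became 0.024 with array weights, 0.13 within slide 2, 0.11 without the muscle-rich arrays and -0.37 to 0.071 leaving out 1 cow, the highest without 5 mM replicate 1. IFIT3 became -0.055 with array weights, -0.10 within slide 2, -0.24 within slide 3, -0.21 without the muscle-rich arrays and -0.12 to 0.56 leaving out 1 cow, the lowest without 5 mM replicate 1. IFIH1 became -0.22 as a mean over probes, -0.89 within slide 1 and -0.25 to 0.68 leaving out 1 cow. Within slide 1, EPSTI1 became 0.43, IFITM2 0.35, IRF9 0.29 and UBA7 0.24. HERC5 became 0.59 within slide 2 and 0.51 without the muscle-rich arrays, and IFIT5 became -0.19 and -0.11 in the same settings. Of the genes dimmest on these arrays, MX2 and ISG20 gave no value with the filter on all 8 arrays.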
